A study of Mus musculus with 7 samples.

Results

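The 10 genes described here encode enzymes that set the level of cyclic AMP, 6 phosphodiesterases (Pde1c, Pde3b, Pde4b, Pde4d, Pde8b and Pde10a) and 4 adenylyl cyclases (Adcy5, Adcy6, Adcy8 and Adcy9). They were taken by name from the 34245 genes of the deposited table. They were selected on the KO against control difference measured in these same libraries, Pde1c as the gene that stands out, so the group differences of the 10 genes are a description. Counts of these genes past a threshold are given below beside the share of all genes, and nothing rests on them. All 10 were listed, and all 10 passed the filter on low values.

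Islets, the clusters of hormone cells of the pancreas, came from 7 C57BL/6J mice aged 8 weeks, 2 of them controls and 5 knockouts (KO). The KO mice carried Abca12 tm1d, a floxed allele of a lipid transporter gene after deletion by Rip1-Cre, a recombinase under an insulin gene promoter that acts in beta cells. The controls carried Rip1-Cre as well, Control 1 with wild type Abca12 and Control 2 as a heterozygote for the floxed allele, so each control genotype was 1 mouse. KO 1 and KO 2 are marked f, and the other 5 libraries m, at the end of the column headers. Levels are in RPM, reads scaled to a common library size, recovered from the deposited log2 values, and the depth implied by those values was 23922958 to 43117317 reads per library. Abca12 itself was listed at 0 reads in 7 of 7 libraries, which allows up to 0.0696 to 0.125 RPM by library, so its level checks no label.

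Cyclic AMP is made from ATP by adenylyl cyclases and broken down by phosphodiesterases. In beta cells it strengthens insulin release that glucose has started, and incretin hormones act through it. The phosphodiesterase families differ in how they are controlled: PDE1 enzymes are switched on by calcium and calmodulin, PDE3 enzymes are inhibited by cyclic GMP, and PDE4 and PDE8 enzymes act on cyclic AMP alone. The cyclases differ in a similar way, with ADCY8 stimulated by calcium and calmodulin, and ADCY5 and ADCY6 inhibited by calcium.

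Pde1c, the calcium-activated enzyme, was about 2-fold higher in KO islets. On the log2(RPM + 1) scale its difference was the largest of any phosphodiesterase or adenylyl cyclase tested. By the plain ratio of group means Adcy2 exceeded it, at 2.27 (0.261 RPM in controls and 0.592 RPM in KO), on 6 to 26 reads per library. Pde1c lies on chromosome 6 (56069804 to 56569103, minus strand, GRCm38). Its level was 19.1 RPM in Control 1 and 11.96 RPM in Control 2. In KO 1 to KO 5 it was 30.9, 37.7, 27.7, 34.8 and 23.8 RPM. All 5 KO libraries lay above both controls, and KO 5 lay closest to them. The mean was 15.6 ± 5.08 RPM (SD, n = 2) in controls and 31.0 ± 5.50 RPM (SD, n = 5) in KO, a ratio of 1.99. On the log2(RPM + 1) scale the difference was 0.97 (SE 0.18).

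These values rest on 397 to 1053 reads per library. The exact 95% Poisson interval, which covers counting error only, was 17.4 to 21.0 RPM in Control 1, 10.8 to 13.2 in Control 2 and 22.4 to 25.4 in KO 5. The intervals of the controls did not meet that of the lowest KO library, and they did not meet each other either. Variation between mice is left out of them, so nothing about genotype is read from this. The controls also differed from each other, by 0.64 on the log2 scale, which was more than for 96.3% of the 14542 genes whose mean was at least 20 reads per library. The spread among KO libraries (SD 0.25 on the log2 scale) was larger than for 89.0% of those genes.

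The size of the Pde1c difference therefore turned on the control. Against Control 1 alone the KO libraries were 1.25 to 1.97 times as high, with a log2 difference of 0.65 (SE 0.19). Against Control 2 alone they were 1.99 to 3.15 times as high, with a log2 difference of 1.28 (SE 0.19). In the authors' deposited table of 136 selected genes, Pde1c has a log2 difference of 1.01 (KO minus control) and a corrected p-value of 1.05e-05. It is the only 1 of the 10 genes in that table.

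**Figure D1:**
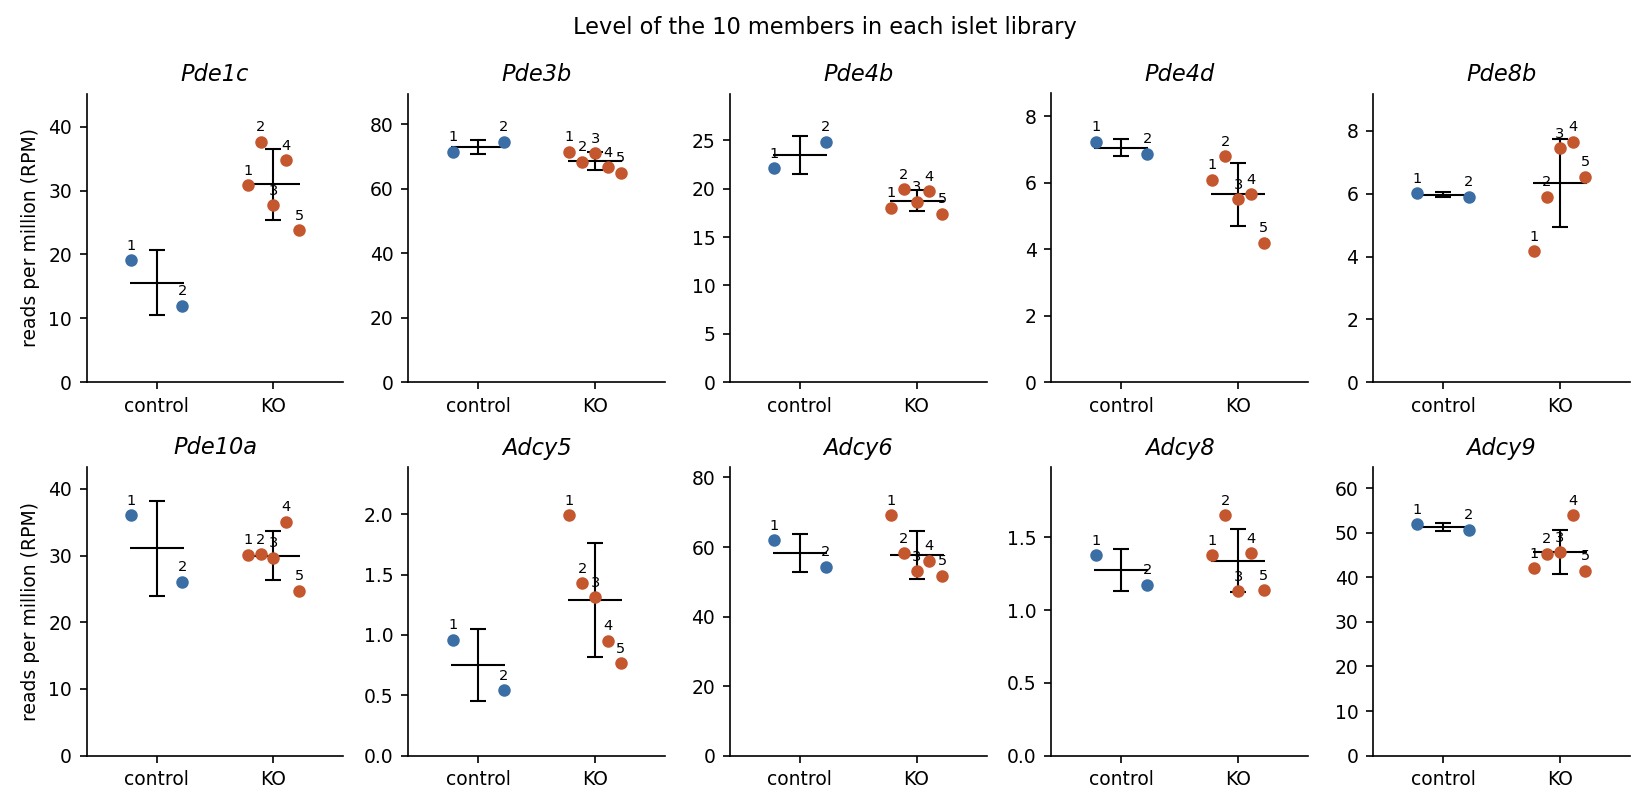
Level of each of the 10 genes in RPM (vertical axes, each from 0) in the 2 control (blue) and 5 KO (orange) libraries. Numbers beside points are replicates, horizontal bars are group means and error bars are SDs; Pde1c is above both controls in all 5 KO libraries, and Pde4b and Pde4d are below them.

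Across the 10 genes, 0 passed the threshold of an adjusted p of 0.05 in the limma fit over all genes, where 0.0617% of 16212 genes tested did (0.0432% higher and 0.0185% lower in KO). At an unadjusted p under 0.05 there were 2 of the 10 (Pde1c and Pde4b), where 10.8% of all genes were under it. With voom on the recovered reads 0 passed as well. The KO and control libraries did not overlap for 1 gene that was higher (Pde1c), where 6.75% of all genes were higher without overlap. They did not overlap for 2 that were lower (Pde4b and Pde4d), where 8.41% of all genes were. The median log2 difference was -0.03 over the 10 genes and -0.01 over all genes tested. The contrast was used in choosing the genes, so nothing is read from these counts.

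Of the cyclic AMP-specific PDE4 enzymes, Pde4b and Pde4d had lower means in KO, while Pde4a had a log2 difference of 0.08 (SE 0.21) and Pde4c one of -0.03 (SE 0.17), both with overlap. Pde4b (chromosome 4, 102087543 to 102607259, plus strand) was at 22.1 and 24.9 RPM in Control 1 and Control 2. In KO 1 to KO 5 it was at 18.0, 19.9, 18.6, 19.7 and 17.4 RPM. The KO libraries kept within a narrow band below both controls, with means of 23.5 ± 1.94 (SD, n = 2) and 18.8 ± 1.08 (SD, n = 5) RPM and a log2 difference of -0.31 (SE 0.09). Pde4d (chromosome 13, 108449948 to 109953461, plus strand) was at 7.23 and 6.87 RPM in the controls. In KO 1 to KO 5 it was at 6.09, 6.80, 5.49, 5.64 and 4.198 RPM. KO 2 was just short of Control 2, and KO 5 was lowest. The log2 difference was -0.29 (SE 0.155), it ran from -0.35 to -0.20 with 1 library left out, and the means were 7.05 ± 0.255 and 5.64 ± 0.955 RPM.

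The start regions of these 3 genes are shown because they are the members whose groups did not overlap. Each is a RefSeq window (GRCm38.p6) of 250 bases before to 50 after a transcription start, written 5′ to 3′ on the gene's strand. Capitals mark the letters TGACG or CGTCA, the core letters of the cyclic AMP response element on either strand, to which the transcription factor CREB binds. The window of Pde1c is chr6:56362343-56362642 (minus strand), that of Pde4b is chr4:102421305-102421604 (plus strand) and that of Pde4d is chr13:108653927-108654226 (plus strand).
Pde1c: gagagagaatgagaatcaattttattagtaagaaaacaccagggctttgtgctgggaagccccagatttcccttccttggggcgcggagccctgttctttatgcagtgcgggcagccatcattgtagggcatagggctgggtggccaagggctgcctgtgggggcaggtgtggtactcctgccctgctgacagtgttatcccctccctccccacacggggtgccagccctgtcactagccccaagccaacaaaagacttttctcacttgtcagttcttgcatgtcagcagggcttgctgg
Pde4b: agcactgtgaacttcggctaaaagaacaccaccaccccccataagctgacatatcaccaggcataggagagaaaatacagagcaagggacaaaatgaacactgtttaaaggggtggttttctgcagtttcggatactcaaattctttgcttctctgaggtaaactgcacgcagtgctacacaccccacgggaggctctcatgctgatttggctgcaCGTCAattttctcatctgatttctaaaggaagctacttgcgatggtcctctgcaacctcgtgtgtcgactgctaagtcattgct
Pde4d: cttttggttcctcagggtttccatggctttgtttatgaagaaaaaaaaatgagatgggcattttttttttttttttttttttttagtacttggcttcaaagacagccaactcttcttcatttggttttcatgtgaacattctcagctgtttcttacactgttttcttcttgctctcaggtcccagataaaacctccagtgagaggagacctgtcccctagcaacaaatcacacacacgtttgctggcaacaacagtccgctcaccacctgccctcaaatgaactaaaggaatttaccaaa
The core letters were found in the Pde4b window, beginning 34 bases before the start, and they are not in the Pde1c and Pde4d windows shown. RefSeq windows were matched for 7 of the 10 genes, 17 windows in all, and 3 of them (1 each of Pde4b, Pde8b and Adcy9) held them, which is 17.6%. Of 32817 such windows in the table, 20.8% held them. The full palindrome TGACGTCA was in 0 of the 17 and in 1.79% of all windows. Pde1c has 3 windows, Pde4b has 4 and Pde4d has 1. All of these lie inside the listed gene, and none reaches its 5′ end, so the letters describe these windows alone. Reads summed per gene do not tell which start was used.

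The most abundant phosphodiesterase among the 10 varied little. Pde3b (chromosome 7, 114415281 to 114539251, plus strand) encodes the enzyme through which insulin limits fat breakdown in adipocytes, and it is also present in beta cells. It was at 71.4 and 74.6 RPM in the controls and at 71.5, 68.4, 71.0, 66.7 and 64.9 RPM in KO 1 to KO 5. KO 1 was level with the lower control, and the log2 difference was -0.09 (SE 0.07). Its spread among KO libraries (SD 0.06 on the log2 scale) was smaller than for most genes, with 7.30% of genes lower still.

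Pde8b and Pde10a overlapped between the groups. Pde8b (chromosome 13, 95024454 to 95250336, minus strand) encodes a high-affinity enzyme for cyclic AMP. It was at 6.02 and 5.91 RPM in the controls and at 4.18, 5.90, 7.44, 7.66 and 6.54 RPM in KO 1 to KO 5. KO 1 was lowest of all libraries and KO 4 highest, with a log2 difference of 0.05 (SE 0.18). Its exons overlap those of the antisense gene Gm48420, so its reads carry the same doubt about strand as those of Adcy6 described with the cyclases. Pde10a (chromosome 17, 8525372 to 8986648, plus strand), an enzyme for both cyclic nucleotides best known from the striatum, was at 36.1 and 26.1 RPM in the controls. In KO 1 to KO 5 it was at 30.1, 30.2, 29.7, 35.1 and 24.8 RPM. The controls spanned nearly the whole KO range, the log2 difference was -0.04 (SE 0.13), and it was 0.19 against Control 2 alone and -0.27 against Control 1 alone.

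Among the cyclases, Adcy6 and Adcy9 made up most of the summed level per kb and overlapped between the groups. Adcy6 (chromosome 15, 98589994 to 98607633, minus strand), a calcium-inhibited cyclase, was at 62.0 and 54.3 RPM in the controls and at 69.2, 58.2, 53.0, 56.1 and 51.8 RPM in KO 1 to KO 5. The lowest and the highest library were both KO, and the log2 difference was -0.02 (SE 0.10). The exons of Adcy6 overlap those of Gm29331 on the other strand, which was listed with 148 to 285 reads against 1484 to 2232 for Adcy6. The strand setting of the counting is not given in the sources used here, so reads of the pair cannot be told apart with certainty. Adcy9 (chromosome 16, 4287529 to 4420498, minus strand), a widely expressed cyclase, was at 51.9 and 50.7 RPM in the controls and at 42.0, 45.3, 45.7, 53.9 and 41.5 RPM in KO 1 to KO 5. KO 4 exceeded both controls and the other 4 KO libraries lay below them, with a log2 difference of -0.17 (SE 0.095).

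Adcy5 and Adcy8 were near 1 RPM. Adcy5 (chromosome 16, 35154877 to 35305737, plus strand), whose human counterpart lies at a locus linked to type 2 diabetes, was counted with 18 to 52 reads per library. It was at 0.961 and 0.542 RPM in the controls and at 1.99, 1.43, 1.31, 0.953 and 0.765 RPM in KO 1 to KO 5. KO 4 and KO 5 lay between the controls, and KO 1 and KO 2, marked f, were highest. The log2 difference was 0.37 (SE 0.20), it ran from 0.20 to 0.55 with 1 library left out, and it was 0.20 (SE 0.19) over the libraries marked m. Adcy8 (chromosome 15, 64699042 to 64922296, minus strand), the calcium-stimulated cyclase, was at 1.38 and 1.18 RPM in the controls and at 1.38, 1.65, 1.13, 1.39 and 1.14 RPM in KO 1 to KO 5. These rest on 33 to 49 reads per library, the groups overlapped, and the log2 difference was 0.035 (SE 0.147).

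Levels of different genes were compared per kb of exon sequence, with the union of exons in GENCODE M21 as length. That union is 20.1 kb for Pde1c and 5.20 to 12.9 kb for the other 9 genes, and where the expressed transcripts are shorter than the union the level per kb is understated. On this scale the control means ran from 9.87 (Adcy9), 8.58 (Adcy6) and 8.01 (Pde3b) RPM per kb over 2.42 (Pde10a), 2.22 (Pde4b), 1.01 (Pde8b) and 0.775 (Pde1c) to 0.587 (Pde4d), 0.157 (Adcy8) and 0.105 (Adcy5). Neighbours in this order kept it in 7 of 7 libraries for Pde3b over Pde10a, Pde4b over Pde8b, Pde1c over Pde4d and Pde4d over Adcy8. The order held in 6 of 7 libraries for Adcy9 over Adcy6, Adcy6 over Pde3b and Pde10a over Pde4b, and in 5 of 7 for Adcy8 over Adcy5.

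The order differed between the groups for Pde1c and its neighbour Pde8b. Per kb Pde1c lay below Pde8b in both controls and above it in 5 of 5 KO libraries. This crossing rests on the exon lengths used, 20.1 kb for Pde1c and 5.88 kb for Pde8b. In RPM, without length scaling, Pde1c was above Pde8b in 7 of 7 libraries. The controls were at 19.1 and 11.96 RPM for Pde1c and at 6.02 and 5.91 RPM for Pde8b. Per kb Pde1c stayed below Pde4b, Pde10a, Pde3b, Adcy6 and Adcy9 in 7 of 7 libraries and above Pde4d, Adcy5 and Adcy8 in 7 of 7. Its KO mean was 1.54 RPM per kb, between Pde4b at 1.78 and Pde8b at 1.08.

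As a share of the summed level per kb of 21 catalytic phosphodiesterase genes, Pde1c was 2.37% in Control 1 and 1.605% in Control 2. In KO 1 to KO 5 it was 4.50%, 5.21%, 4.03%, 4.79% and 3.40%. This share does not depend on how the libraries were scaled, and it was higher in all 5 KO libraries than in both controls. It is built from the same Pde1c values on which the gene was chosen, so it is a description and no separate support. Pde3b made up 20.8% ± 1.79 (SD, n = 2) of the sum in controls and 21.4% ± 1.30 (SD, n = 5) in KO. The summed level itself was 40.2 and 37.2 RPM per kb in the controls and 34.2 to 36.2 in KO, so KO libraries were lower without overlap even though Pde1c was higher. The sum of 10 adenylyl cyclase genes was 20.5 ± 0.687 RPM per kb in controls and 19.1 ± 1.30 in KO, with overlap. The ratio of cyclase to phosphodiesterase sums was 0.531 ± 0.0119 and 0.542 ± 0.0360, which differed by less than the spread between KO libraries. The phosphodiesterase sum is not limited to enzymes for cyclic AMP. Pde5a, which acts on cyclic GMP, made up 21.4% ± 4.24 (SD, n = 2) of it in controls and 19.0% ± 2.71 (SD, n = 5) in KO. The ratio therefore does not measure synthesis against breakdown of cyclic AMP.

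**Figure D2:**
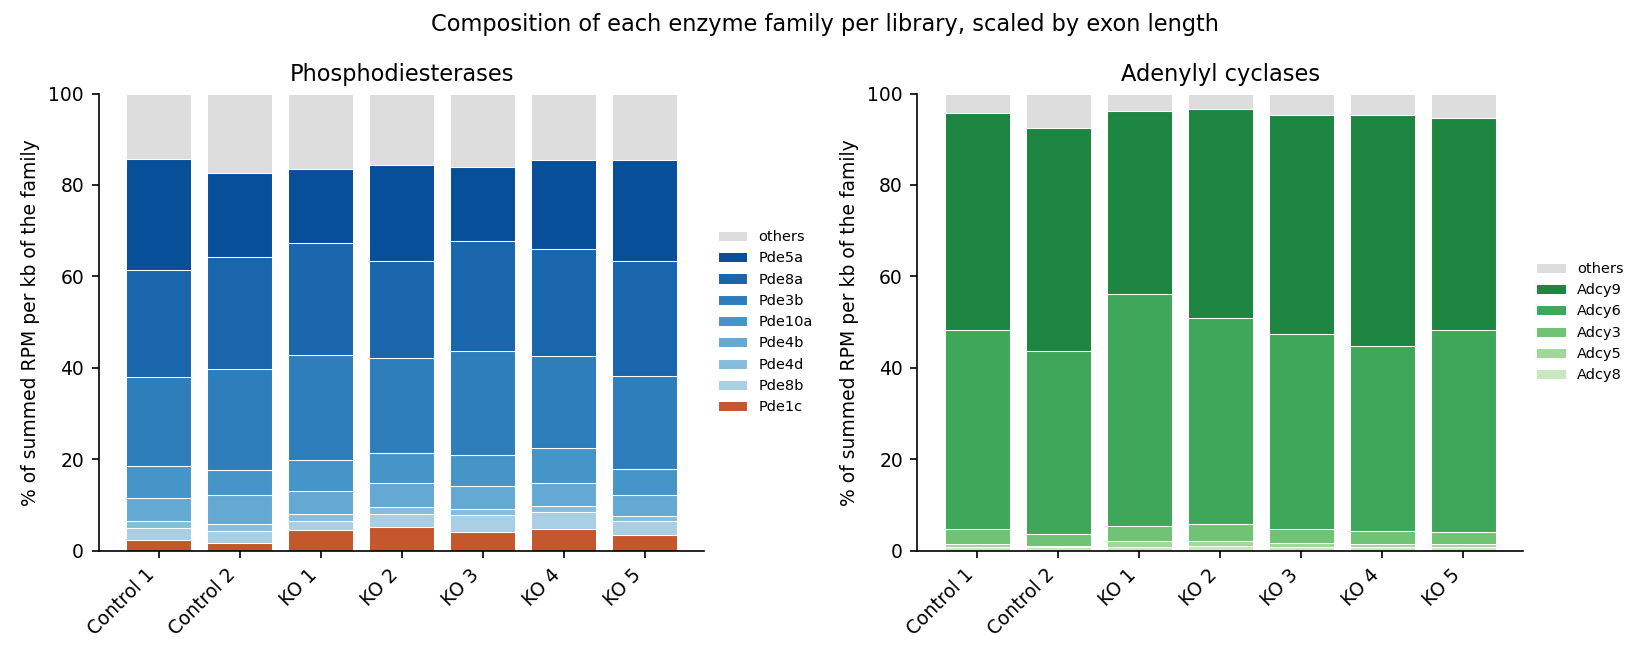
Share of each gene in the summed level (RPM per kb of exon) of 21 phosphodiesterase genes (left) and 10 adenylyl cyclase genes (right), 1 bar per library. Pde1c, in orange at the base, takes 1.605% to 2.37% in controls and 3.40% to 5.21% in KO, while Adcy6 and Adcy9 make up most of the cyclase bars in every library.

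The other genes of both enzyme families gave 0 calls. Of 12 other phosphodiesterase genes tested, 0 passed by limma, 11 had a lower and 1 a higher mean in KO, and the median log2 difference was -0.15. Over all genes 48.3% were higher in KO. Pde3a, the relative of Pde3b in heart and smooth muscle, was at 4.18 and 3.71 RPM in controls and 1.92 to 2.89 RPM in KO, with no overlap (log2 difference -0.50, SE 0.15). Pde7b, which acts on cyclic AMP, was at 18.6 and 18.8 RPM and at 13.7 to 17.1 RPM, also without overlap (log2 difference -0.30, SE 0.10). The other genes of the PDE1 family, Pde1a and Pde1b, were at 0.183 to 1.57 RPM with both groups overlapping and log2 differences of -0.15 (SE 0.19) and -0.20 (SE 0.19).

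Of 5 other cyclase genes tested, 0 passed, with 2 higher and 3 lower. Adcy7, the cyclase most typical of blood cells, was at 1.55 and 3.38 RPM in the controls and 0.769 to 1.46 RPM in KO (log2 difference -0.61, SE 0.21). Summed lymphocyte markers were 2.01 and 17.2 RPM in the controls and 1.47 to 3.34 in KO, and Control 2 was highest for both. Summed endothelial markers were 160 and 189 RPM in controls and 99.0 to 145 in KO, with 8 of 8 lower. Summed stellate and smooth muscle markers were 51.9 and 153 RPM in controls and 40.1 to 53.2 in KO, with 10 of 10 lower. Their part in the lower levels of Adcy7 and Pde3a was not tested. In whole islets, fewer cells of a type and less RNA per cell cannot be told apart.

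**Figure D3:**
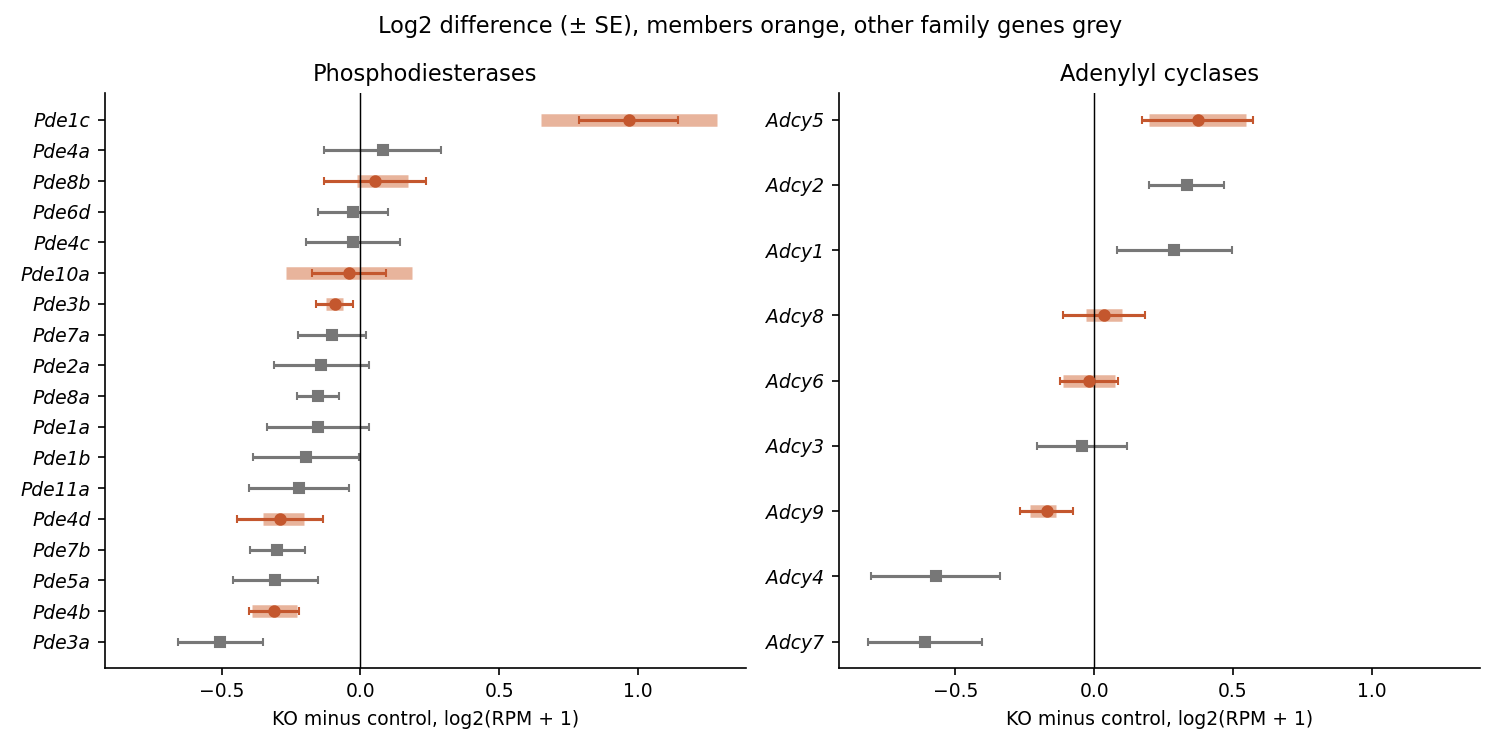
Difference between KO and control on the log2(RPM + 1) scale (horizontal axis) for the phosphodiesterase and adenylyl cyclase genes that were tested, with the 10 genes in orange circles and other family genes in grey squares. Whiskers are SEs and pale bars show the range when 1 library is left out; Pde1c runs from 0.65 to 1.28 and lies to the right of all others.

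Genes upstream of the cyclases gave 0 calls. Of 11 receptors coupled to Gs, the stimulatory G protein, 7 were higher and 4 lower, with a median log2 difference of 0.21, and 5 were higher without overlap, where 6.75% of all genes were. The glucagon receptor gene Gcgr was at 8.95 and 9.01 RPM in the controls and 10.2 to 16.6 RPM in KO (log2 difference 0.60, SE 0.15). The adenosine receptor gene Adora2a was at 4.97 and 3.53 RPM and at 5.43 to 7.24 RPM (log2 difference 0.47, SE 0.16). Of 8 receptors coupled to the inhibitory Gi, 6 were higher and 2 lower, with a median of 0.16. They include the prostaglandin receptor gene Ptger3, at 2.01 and 1.63 RPM against 2.74 to 4.07 RPM, and the adenosine receptor gene Adora1, at 6.31 and 5.46 RPM against 6.59 to 12.7 RPM. In the authors' deposited table Gcgr has a log2 difference of 0.65 and Ptger3 one of 0.90.

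The G protein alpha subunits differed in both directions, with Gnas, which encodes the stimulatory subunit, at 753 and 742 RPM in controls and 769 to 845 RPM in KO. Gnao1, of the inhibitory class, was at 315 and 309 RPM and at 284 to 306 RPM. Of 7 such genes 3 were higher and 4 lower, with a median of -0.05.

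Downstream of cyclic AMP, 0 of 11 genes of protein kinase A and Epac passed (4 higher, 7 lower, median -0.06). Rapgef4, which encodes the Epac form known from beta cells, was at 77.2 and 71.9 RPM in controls and 58.6 to 69.4 RPM in KO, without overlap (log2 difference -0.22, SE 0.08). Prkar2a, a regulatory subunit of the kinase, was at 43.9 and 42.7 RPM and at 44.4 to 51.5 RPM. Of 11 anchoring proteins for the kinase, 9 were lower and 2 higher (median -0.10). The anchor gene Akap13 was at 151 and 134 RPM in controls and 108 to 117 RPM in KO (log2 difference -0.36, SE 0.07; adjusted p = 0.0821 by limma). Akap6 was at 9.24 and 10.4 RPM and at 7.20 to 8.86 RPM.

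Of 9 genes for CREB factors and coactivators, 8 were lower and 1 higher (median -0.08), with Creb1 at 31.9 and 32.3 RPM in controls and 26.7 to 31.4 RPM in KO. Its coactivator gene Crtc1 was at 34.4 and 36.2 RPM and at 28.6 to 33.4 RPM. Of 12 CREB target genes, 11 had a higher mean in KO than in controls, with a median log2 difference of 0.18 and 0 past the threshold. This count turned on Control 2: the KO mean was above Control 2 for 11 of the 12 and above Control 1 for 5. Nr4a1, a nuclear receptor gene induced within minutes by cyclic AMP and calcium, was at 28.9 RPM in Control 1, 14.5 in Control 2 and 31.2 to 39.2 in KO (log2 difference 0.68, SE 0.19). It was the only 1 of the 12 without overlap, and, as for Pde1c, the lowest library was Control 2.

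Calmodulin and its enzymes, the calcium arm that activates PDE1C, had 6 higher and 7 lower of 13 tested (median -0.02). The kinase gene Camk2b was at 119 and 117 RPM in controls and 131 to 145 RPM in KO, and Camk1d was at 3.51 and 2.71 RPM and at 1.67 to 2.39 RPM, both without overlap. Of 6 cyclic GMP genes 4 were higher and 2 lower (median 0.05). The guanylyl cyclase gene Gucy2c was at 54.0 and 43.7 RPM and at 44.4 to 66.6 RPM. Both exporters of cyclic nucleotides were lower, with Abcc5 at 59.6 and 52.0 RPM and at 43.9 to 54.2 RPM. In the 12 lists together 0 of 107 genes tested passed by limma, 0 by voom, and 20 had an unadjusted p under 0.05, where 10.8% of all genes had. They split into 47 higher and 60 lower. Without overlap 15 were higher and 13 lower, where 6.75% and 8.41% of all genes were.

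The genes whose pattern over the 7 libraries was most like that of Pde1c were Tacr3, Nptx2, Gem, Inhba and Reep1, out of 14541 compared. Likeness was the mean absolute difference from Pde1c of log2(RPM + 1) centred on each gene's mean, and it was 0.11, 0.12, 0.12, 0.13 and 0.16, against a median of 0.43 over all genes compared. Nptx2, a secreted pentraxin of neurons, was at 20.7 and 10.9 RPM in controls and at 23.5, 35.1, 28.2, 29.7 and 23.2 RPM in KO 1 to KO 5. Gem, a small GTPase that inhibits voltage-gated calcium channels, was at 12.3 and 6.15 RPM and at 17.9, 27.8, 14.3, 21.4 and 14.7 RPM. Inhba, a subunit of activin, was at 13.1 and 8.29 RPM and at 22.1, 23.5, 14.3, 21.3 and 17.1 RPM. In each of these 3 genes Control 2 was lowest and KO 2 highest, as for Pde1c, which follows from choosing them by the Pde1c pattern.

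Tacr3, the neurokinin B receptor gene, was at 5.31 and 2.32 RPM in controls and 5.13 to 8.45 RPM in KO. Reep1, which shapes the endoplasmic reticulum, was at 2.17 and 0.573 RPM and at 1.69 to 4.81 RPM. In both the groups overlapped, since KO 5 was below Control 1. Of the other 9 members, 4 were closer to Pde1c than the median gene and 5 farther from it, with Adcy5 closest at place 420 (mean difference 0.31) and Pde4b farthest at place 13129 (0.52).

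**Figure D4:**
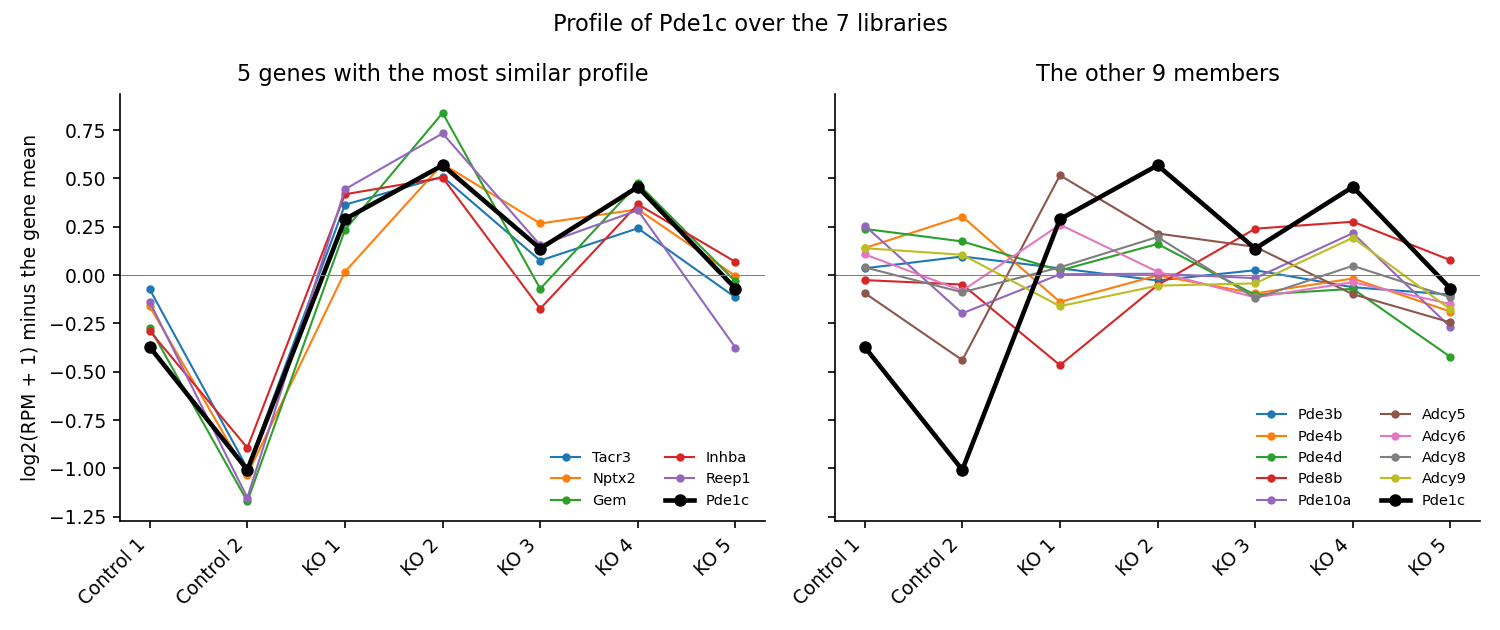
Level of each gene in each library as log2(RPM + 1) minus the gene's mean (vertical axis) over the 7 libraries (horizontal axis), with Pde1c in black. On the left the 5 most similar genes share its lowest value in Control 2 and are higher in KO 2 than in the other KO libraries; on the right are the other 9 members, of which Adcy5 is closest to Pde1c and Pde4b farthest from it.

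Markers of other cell types also differed between the groups. The sum of 14 acinar markers, genes of the exocrine pancreas, was 803 and 393 RPM in the controls and 2938, 10110, 10170, 1652 and 1964 RPM in KO 1 to KO 5. Beside these sums, Pde1c was at 30.9, 37.7, 27.7, 34.8 and 23.8 RPM in the same KO libraries. With the mean acinar marker level of each library as a covariate, the Pde1c log2 difference was 0.72 (SE 0.27). That level was itself higher in all 5 KO libraries than in both controls, so the covariate and the genotype overlap. Without KO 2 and KO 3, which had the highest acinar sums, the difference was 0.92 (SE 0.19), and over the libraries marked m it was 0.87 (SE 0.18).

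Summed delta and PP cell markers were 1589 and 1300 RPM in the controls and 1719 to 2674 RPM in KO, without overlap, with 5 of 6 higher. Alpha cell markers overlapped, at 3136 and 3268 RPM and at 2539 to 7221 RPM, with 6 of 7 higher. The sum of 10 beta cell markers overlapped as well, at 70000 and 77100 RPM and at 59670 to 88160 RPM, with 8 of 10 lower. Duct markers were at 2325 and 2360 RPM and at 1977 to 2736 RPM, macrophage markers at 40.8 and 70.0 RPM and at 36.5 to 47.1 RPM, and Schwann cell and neuron markers at 23.1 and 28.2 RPM and at 20.7 to 26.9 RPM. No marker on these lists was at 0 in all libraries. Their part in the Pde1c difference was not tested.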

How the data were processed

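PolyA-selected RNA from whole islets was sequenced with a directional kit, per the labels' protocols. HISAT2, DESeq2 and GRCm38 are named by the submitters' processing notes, without versions or roles. Counting software, strand setting and annotation: not given in the sources used here. Per gene and library the authors deposited log2 values. Their antilogs are whole multiples of 1 step per library, within 0.02 of a step for 100% of values under 1000 reads, so reads and RPM were recovered, and genes without reads, stored at 0.9 of a step, were set to 0. The authors also deposited, for 136 selected genes, group means, a fold ratio and a corrected p-value whose test is not named. Libraries were grouped by their titles.

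Genes with 10 reads at the median depth (0.366 RPM) in at least 2 libraries entered the test, 16212 of 34245. limma 3.58.1 (R 4.3.3) fitted KO against control on log2(RPM + 1) with an intensity trend, two-sided, with Benjamini-Hochberg adjustment over all genes tested and a threshold of 0.05. It called 10 genes, 7 higher and 3 lower. Scaled to the total of the listed genes it called 8 higher and 6 lower, and voom on the recovered reads called 6 higher and 8 lower. A fold change on this scale understates that of low genes. The code of the fit was checked on simulated counts with the same spread for all genes, which does not measure how it performs on these libraries. Whether mice shared a litter or a day is not on the labels, and p-values here rest on the variation among 7 libraries, which may be partly technical. Poisson intervals and floors cover counting error only.

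The 10 genes and the 12 lists were chosen with earlier results of these data known. From each list the text names any gene past the threshold. It also names up to 2 genes without overlap of the groups and with a mean of at least 20 reads, by size of the difference. Where a list had none of these, the most abundant gene is named. Adcy2, Pde1a, Pde1b, Pde4a, Pde4c and Pde5a were named after their values were seen. Symbols shared by several rows were resolved by position in GENCODE M21, and 2 older symbols by RefSeq synonyms. Pde6d, Pde6g and Pde6h, which are not catalytic, were left out of the phosphodiesterase sum. Alternatives covered scaling, filters, pseudocount, voom, covariates, the replicate block and leaving out libraries. Plots were drawn with matplotlib 3.10.9.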

Additional observations from a re-analysis of the deposited data

Results flagged for a closer look

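Among the 35 genes named by rule, 1 had a KO library set apart from the other 4 by Dixon's criterion. Nr4a1 in KO 2 was at 39.2 RPM, while the other KO libraries were at 31.2 to 33.5 RPM, a gap of 0.715 of the range against a critical value of 0.710. Chance flags about 1 in 20 groups. KO 2 was also the highest library for Pde1c.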

How the results depend on the processing

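Of 190 values for the 10 genes under 19 alternatives, 182 lay within 1 SD between replicates of the reported value. Leaving out libraries could not change the sign for Pde1c, Pde4b or Pde4d, whose groups did not overlap. Both controls are marked m, so sex as a covariate and the libraries marked m alone gave the same Pde1c difference, 0.87. Pde1c was higher in KO under all 19 alternatives. Its log2 difference ran from 0.65 to 1.28 with 1 library left out, the ends being the fits without Control 2 and without Control 1, and these set 1 control against 5. Pde3b, Pde4b, Pde4d and Adcy9 were lower and Adcy5 higher under all 19, with Pde3b from -0.14 to -0.06, Pde4b from -0.39 to -0.23, Pde4d from -0.53 (acinar covariate) to -0.11 (replicate block), Adcy9 from -0.23 to -0.13 and Adcy5 from 0.08 (acinar covariate) to 0.71 (voom), while Pde8b, Pde10a, Adcy6 and Adcy8 changed sign in at least 1.

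The count of 10 genes called over the whole table was 19 with TMM scaling, 20 with median-ratio scaling, 4 without a filter, 3 with sex as a covariate and 0 with the mean acinar marker level as one (1216 at an unadjusted p under 0.05). It was 47 without KO 2 and KO 3, and 2 to 127 with 1 library left out. Of the list genes, 1 (Gcgr) passed without KO 2 and KO 3, and 0 with 1 KO library left out. The fits that leave out a control set 1 control against 5. No call of Pde1c or of a list gene is therefore read from them in either direction. The Pde1c log2 difference was 1.28 without Control 1 and 0.65 without Control 2. The cause of the changes in these counts was not tested. With the replicate block 11 genes were called, 0 of them on the lists, and the Pde1c difference was 1.12 (SE 0.21). The replicate numbers are shared by 2 pairs alone, their deviations correlated at -0.12 and -0.27, and nothing in the labels pairs the mice. Adcy5 and Adcy8, at 18 to 52 reads per library, are the members that depth limits most.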
